A study of Mus musculus with 10 samples.

Results

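Small leucine-rich proteoglycans (SLRPs) and thrombospondins are secreted proteins of the extracellular matrix, and several of them bind transforming growth factor beta (TGF-beta). The 10 genes Dcn, Bgn, Aspn, Fmod, Lum, Prelp, Ogn, Thbs1, Thbs2 and Thbs3 were represented by every probe set whose platform annotation gives exactly 1 gene symbol and that symbol is theirs. This gave 24 of 45037 probe sets for 10 of the 18193 genes measured, with 2 genes on 1 probe set and 8 on several. Another probe set, annotated to both Thbs1 and Pald1, was left out. Probe sets of 1 gene share a target and are not independent measurements of it.

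RNA from the secondary palate was measured on an Affymetrix mouse expression array at stage E14.5, when the palatal shelves fuse, with 1 array a sample. The mutant group holds 5 arrays of embryos that carry floxed alleles of Tgfbr2, the type II TGF-beta receptor, together with Wnt1-Cre, a recombinase that is active in the neural crest. The control group holds 5 arrays of embryos with the same floxed alleles and no Cre in the genotype label, which the titles call wildtype. Both groups are of the strain C57B6, and the sex was not determined. Wnt1-Cre leaves the receptor in palate cells that do not come from the neural crest, such as epithelium, endothelium and blood. Nothing in the labels ties each array to its own embryo, and the p-values therefore cover the spread among these arrays, part of which may be technical. The question is how palate expression differs when crest-derived cells lose the receptor.

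SLRPs have a core of leucine-rich repeats that sits on collagen fibrils and sets their width and spacing. Decorin and biglycan carry chondroitin or dermatan sulfate chains and can hold TGF-beta in the matrix, while fibromodulin and lumican carry keratan sulfate. Thrombospondin 1 can release TGF-beta from its latent complex, and thrombospondins 1 and 2 restrain vessel growth through the receptor CD36. TGF-beta in turn is a known inducer of several matrix genes, and its receptors signal through SMAD proteins, whose core DNA element is CAGAC.

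No member passed the test, and the differences between the groups were small. Of the 24 probe sets, 0 were called higher or lower at an adjusted p under 0.05 (limma, Benjamini-Hochberg over all probe sets), against 3.26% of all probe sets (1.07% higher, 2.18% lower). At an unadjusted p under 0.05 there were 8 of 24, against 19.6% of all. These 8 were both probe sets of Dcn and Thbs1, 1 of Thbs2 and 3 of Fmod. The log2 difference, mutant minus control, ran from -0.32 to 0.50, and no probe set reached 1.5-fold by its fitted difference, against 1.76% of all. For no member did the mutant arrays lie all above the controls (1.45% of all probe sets) or all below them (3.42%). The median difference was 0.16 over the 24 probe sets and 0.00 over all probe sets, with 17 of the 24 above 0, against 49.2% of all. The 95% confidence intervals of 8 of the 24 reached a 1.5-fold change, so a change of that size was not excluded for these.

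One library, control replicate 1, was unlike the rest. Its score was 80.3 on the leading principal component, where the other 9 arrays had -21.0 to 2.7. Its highest correlation with another array was 0.9822, while that of every other array was at least 0.9946. It was the lowest control, or tied for it, on 15 of the 24 member probe sets, and control replicate 4 was so on 10, ties included. The share over all probe sets is not given here. Without control replicate 1, 0 of 24 were called, against 4.46% of all probe sets, and 10 had an unadjusted p under 0.05, against 21.3%. The median difference was then 0.10, and 16 of 24 were above 0, against 50.1%. The intervals of 3 probe sets then reached 1.5-fold. Tgfbr2 itself stood at 10.7 to 10.8 in mutant and 10.5 to 10.8 in control arrays on its brightest probe set (log2 difference 0.08, SE 0.07, limma adjusted p = 0.541). The position of these probes with respect to the deleted exons is not known here, and these values do not check the deletion. The markers of palate mesenchyme (Prrx1, Twist1, Osr2, Pdgfra and Msx1) averaged 10.18 to 10.66 in mutant and 10.26 to 10.86 in control arrays, and 0 of 5 were called (limma; 1 at an unadjusted p under 0.05). In such bulk tissue, fewer cells of a type and less RNA per cell cannot be told apart.

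**Figure D1:**
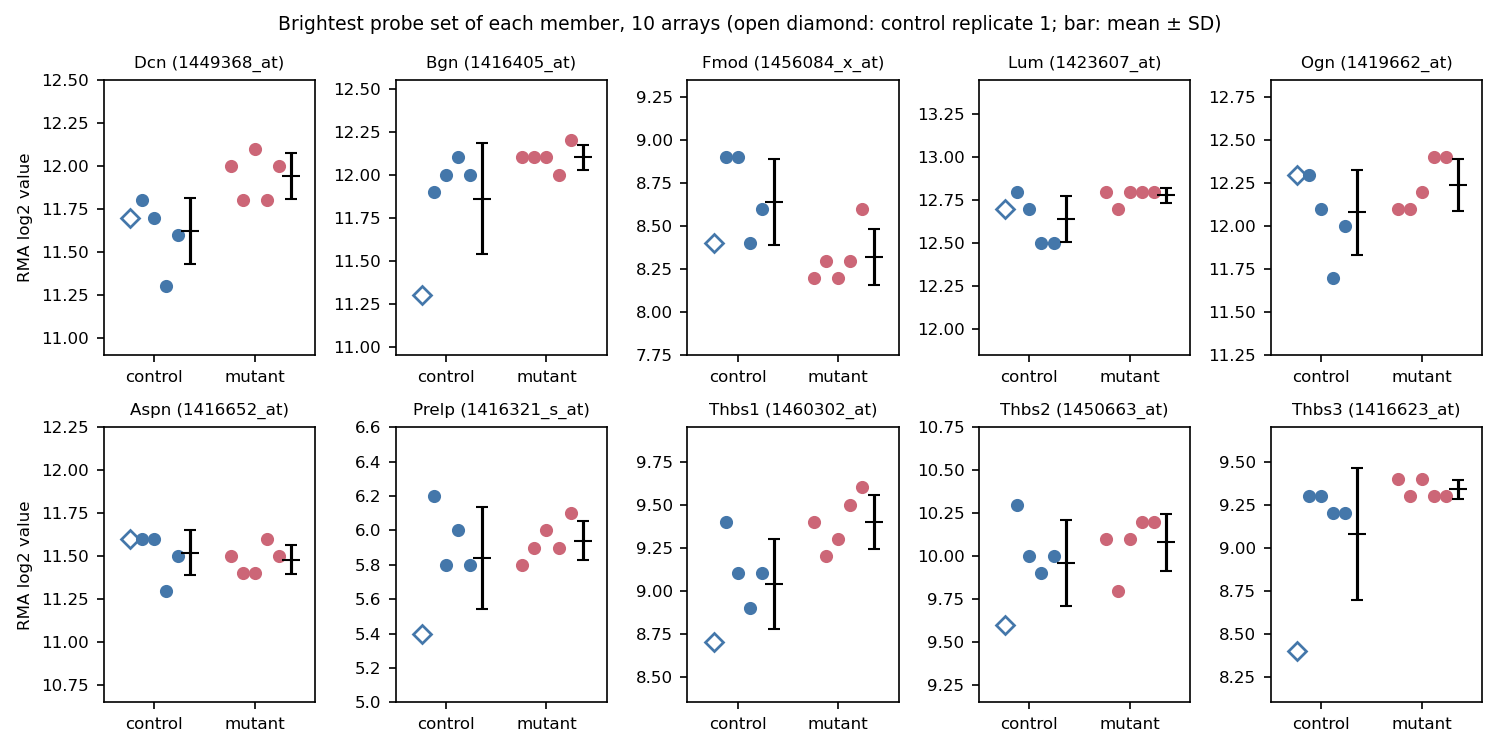
RMA log2 values (vertical axis, a span of 1.6 in every panel) of the brightest probe set of each member in 5 control and 5 mutant arrays; points are arrays, the open diamond is control replicate 1, and bars are the mean ± SD. The groups overlap in every panel, and the diamond is the lowest point for Bgn, Prelp, Thbs1, Thbs2 and Thbs3.

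Decorin (Dcn), the main SLRP of collagen fibrils in soft connective tissue, was among the members with the smallest p. Its brightest probe set, 1449368_at, read 12.0, 11.8, 12.1, 11.8 and 12.0 in mutant replicates 1 to 5 and 11.7, 11.8, 11.7, 11.3 and 11.6 in control replicates 1 to 5. All 5 mutant arrays were above the control median and 3 were above the highest control. The means were 11.94 ± 0.13 and 11.62 ± 0.19 (SD, n = 5 each), a log2 difference of 0.32 (SE 0.10, 95% interval 0.10 to 0.54, limma adjusted p = 0.106). The other probe set, 1441506_at, read 6.3 to 6.7 in mutants and 5.5 to 6.4 in controls, a difference of 0.50 (SE 0.15, interval 0.18 to 0.82, limma adjusted p = 0.0865). Only mutant replicate 5 was above control replicate 2, the highest control, and without that control this probe set was called (0.62, limma adjusted p = 0.0227). Its values lay near or below the array medians of 6.4 or 6.5, far under those of the brightest probe set. With the mean of both probe sets in the fit the gene was called as well (0.41, limma adjusted p = 0.0336, against 2.67% of genes called higher that way). That p is adjusted over genes and not over probe sets. Adjusted over genes, the brightest probe set by itself had limma adjusted p = 0.0651. Without control replicate 1 the differences were 0.34 and 0.39 (limma adjusted p = 0.0933 and 0.0976). With arrays weighted by their fit to the rest, both Dcn probe sets were called (0.46 and 0.37, limma adjusted p = 0.0340 and 0.0478), against 2.51% of all probe sets called higher in that fit. The Dcn call therefore depended on the setting, and the brightest probe set by itself was called only with array weights.

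Biglycan (Bgn), the SLRP closest to decorin and encoded on the X chromosome, was measured by 3 probe sets. On the brightest, 1416405_at, mutant replicates 1 to 5 read 12.1, 12.1, 12.1, 12.0 and 12.2, and control replicates 1 to 5 read 11.3, 11.9, 12.0, 12.1 and 12.0. Control replicate 1 alone lay far below, while the other controls overlapped the mutants. The difference was 0.24 with all arrays (SE 0.13, limma adjusted p = 0.344) and 0.10 without control replicate 1 (SE 0.06, interval -0.04 to 0.24, limma adjusted p = 0.384). The other probe sets gave 0.22 and 0.28, or 0.09 and 0.13 without that array.

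Asporin (Aspn), an SLRP with a stretch of aspartate residues in place of a glycosaminoglycan chain, differed little on its brightest probe set. The 1416652_at values were 11.4 to 11.6 in mutants and 11.3 to 11.6 in controls (difference -0.04, SE 0.07, interval -0.20 to 0.12, limma adjusted p = 0.802). On 1448421_s_at the mutants read 11.3, 10.8, 11.1, 11.1 and 11.2, and the controls 11.5, 10.7, 10.6, 10.6 and 11.0. Here control replicate 1 was the highest of all 10 arrays. The difference was 0.22 with it (SE 0.17, limma adjusted p = 0.498) and 0.37 without it (SE 0.11, interval 0.13 to 0.62, limma adjusted p = 0.0812). The within-array difference between both Aspn probe sets gave p = 0.214 by exact permutation (two-sided), or 0.0397 without that array, and did not pass adjustment over 26 pairs (1.0 and 0.958). A single pair could not pass that adjustment, since the smallest exact permutation p that 5 against 5 arrays allow is 0.00794.

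Fibromodulin (Fmod), which binds collagen during early fibril assembly, was the only member with all of its probe sets below 0. Its 6 probe sets gave log2 differences from -0.14 to -0.32. The brightest, 1456084_x_at, read 8.2, 8.3, 8.2, 8.3 and 8.6 in mutant replicates 1 to 5 and 8.4, 8.9, 8.9, 8.4 and 8.6 in control replicates 1 to 5. Mutant replicates 1 to 4 were below the lowest control and mutant replicate 5 was within the control range. The means were 8.32 ± 0.16 and 8.64 ± 0.25 (SD, n = 5 each), and the difference of -0.32 did not pass (SE 0.12, interval -0.59 to -0.05, limma adjusted p = 0.175). Without control replicate 1 it was -0.38 (SE 0.12, limma adjusted p = 0.0976). Of the other 5, 1415939_at gave -0.16, 1437324_x_at -0.14, 1437685_x_at and 1437718_x_at -0.22 each, and 1438966_x_at -0.24, with limma adjusted p from 0.225 to 0.565. All but 1 of the Fmod probe sets have the suffix x, which Affymetrix gives to sets with probes that can also match other transcripts. For no pair of Fmod probe sets did the within-array difference have p under 0.05, the lowest exact two-sided permutation p being 0.127. For that pair, 1437324_x_at and 1456084_x_at, the groups differed by 0.18, or by 0.21 without control replicate 1 (exact permutation p = 0.0794). With the level of Eif2s3y, a Y-linked gene, as a covariate, the difference of 1456084_x_at shrank to -0.12 (limma adjusted p = 0.464). In that fit 1415939_at gave 0.05, 1437324_x_at 0.01, 1437685_x_at -0.09, 1437718_x_at -0.10 and 1438966_x_at -0.07. The lower Fmod values therefore depended on the setting.

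Lumican (Lum), which spaces collagen fibrils in the cornea and skin, was measured by 1 probe set. Its probe set 1423607_at read 12.7 in mutant replicate 2 and 12.8 in the other mutants, and 12.7, 12.8, 12.7, 12.5 and 12.5 in control replicates 1 to 5. The difference was 0.14 (SE 0.07, interval -0.02 to 0.30, limma adjusted p = 0.303), and 0.15 without control replicate 1.

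Osteoglycin (Ogn), an SLRP also called mimecan, gave 0.16 on both of its probe sets (limma adjusted p = 0.493 and 0.437). The 1419662_at values were 12.1 to 12.4 in mutants and 11.7 to 12.3 in controls, where control replicate 4 was the lowest. Prelp, a basement membrane anchor with an arginine- and proline-rich end, gave 0.10 and 0.06 (limma adjusted p = 0.705 and 0.745). On its probe set 1416321_s_at the mutants read 5.8 to 6.1, control replicate 1 read 5.4 and the other controls 5.8 to 6.2, and the sign of the difference turned without that control (-0.01, interval -0.22 to 0.20).

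Thrombospondin 1 (Thbs1), the family member that can activate latent TGF-beta, was measured by 2 probe sets with similar differences. On 1460302_at mutant replicates 1 to 5 read 9.4, 9.2, 9.3, 9.5 and 9.6, and control replicates 1 to 5 read 8.7, 9.4, 9.1, 8.9 and 9.1. All 5 mutants were above the control median, and control replicate 2 reached into the mutant range. The means were 9.40 ± 0.16 and 9.04 ± 0.26 (SD, n = 5 each), a difference of 0.36 (SE 0.12, interval 0.09 to 0.63, limma adjusted p = 0.138). Without control replicate 1 it was 0.28 (SE 0.11, limma adjusted p = 0.173). On 1450377_at the mutants read 8.1 to 8.5 and the controls 7.5 to 8.1, a difference of 0.40 (SE 0.12, limma adjusted p = 0.105), or 0.30 without that control. The labels do not give the sex, and Eif2s3y, a Y-linked gene, was unevenly spread over the groups. It read 9.2, 9.0, 9.3, 9.1 and 5.1 in mutant replicates 1 to 5 and 9.1, 3.2, 3.3, 9.0 and 3.2 in control replicates 1 to 5, so 4 mutants but only 2 controls were high (log2 difference 2.78, SE 1.38, limma adjusted p = 0.295). These 2 controls, replicates 1 and 4, were also the lowest control or tied for it on 15 and 10 member probe sets. No fit with Eif2s3y as a covariate was run without control replicate 1. With the Eif2s3y level as a covariate both Thbs1 probe sets were called (0.55 and 0.59, limma adjusted p = 0.0265 and 0.0228), as was 1441506_at of Dcn (0.72, limma adjusted p = 0.0172), against 0.708% of all probe sets called higher in that fit. Platelets also store thrombospondin 1. Of 4 platelet markers Ppbp was higher and Pf4 lower by the gene-level fit (1.48 and -0.62, limma adjusted p = 0.0431 and 0.0156), with the Ppbp call lost without control replicate 1 (1.36, limma adjusted p = 0.0741), and the list averaged 6.95 to 7.68 in mutants and 6.93 to 7.35 in controls; its part in the Thbs1 values was not tested.

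Thrombospondin 2 (Thbs2), a relative of thrombospondin 1 that lacks the ability to activate TGF-beta, had 1 probe set with a small p. On 1447862_x_at the mutants read 9.8, 9.6, 9.8, 9.6 and 9.7, and the controls 9.2, 9.5, 9.2, 9.4 and 9.6. Mutant replicates 2 and 4 were level with control replicate 5, and the other mutants were above all controls. The difference was 0.32 (SE 0.09, interval 0.12 to 0.52, limma adjusted p = 0.0785), the smallest adjusted p of any member. Its brightest probe set, 1450663_at, gave only 0.12 (SE 0.12, limma adjusted p = 0.621), or 0.03 without control replicate 1, and 1422571_at gave 0.30, or 0.12 without that array. The within-array difference between the first and the brightest did not pass (0.20, exact two-sided permutation p = 0.175).

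Thrombospondin 3 (Thbs3), which assembles into larger complexes than thrombospondins 1 and 2, was measured by 1 probe set. Its values on 1416623_at were 9.3 or 9.4 in all mutants, 8.4 in control replicate 1 and 9.2 or 9.3 in the other controls. The difference was 0.26 (SE 0.15, limma adjusted p = 0.377) with all arrays and 0.09 (SE 0.06, interval -0.03 to 0.21, limma adjusted p = 0.384) without control replicate 1.

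**Figure D2:**
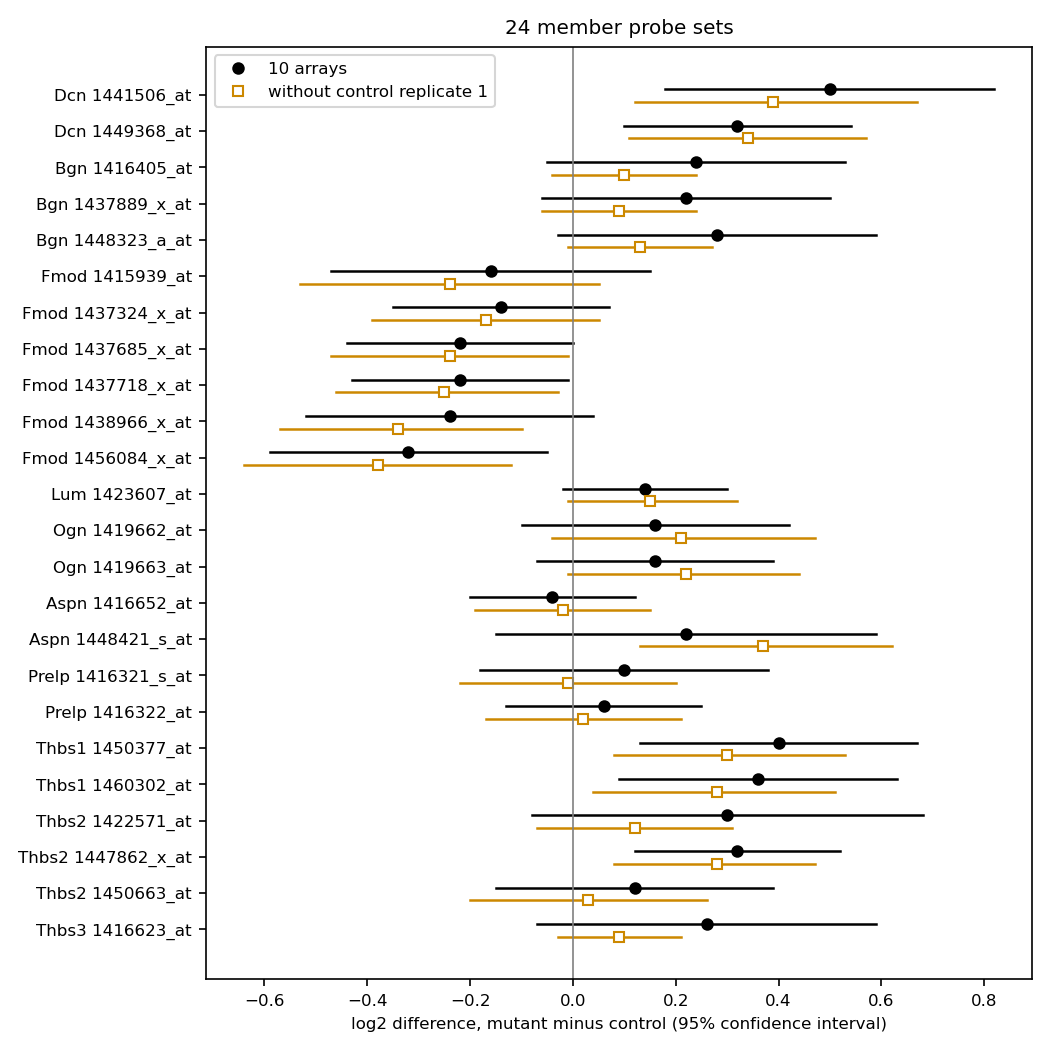
Log2 difference, mutant minus control (horizontal axis), with its 95% confidence interval for each of the 24 member probe sets (vertical axis), in all 10 arrays (filled circles) and without control replicate 1 (open squares). All 6 Fmod probe sets lie below 0 and both probe sets of Dcn and Thbs1 above it; Bgn and Thbs3 move toward 0 without that array.

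**Figure D3:**
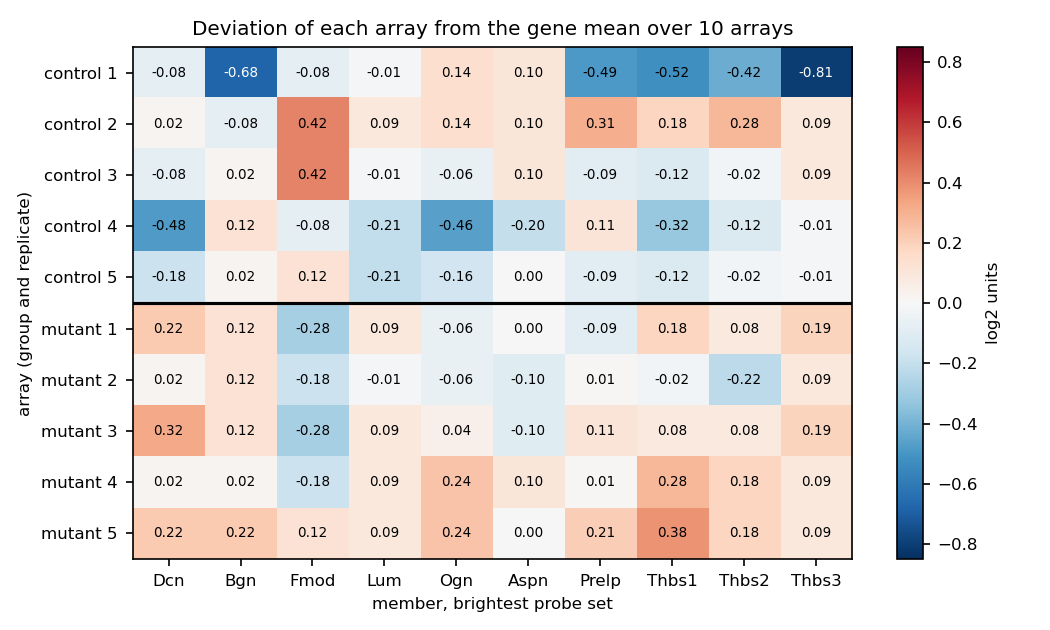
Deviation of each array (vertical axis) from the mean of its gene over 10 arrays, in log2 units (colour and printed number), for the brightest probe set of each member (horizontal axis). Control replicate 1 is low for 5 members, by 0.42 to 0.81, and control replicate 4 is low for Dcn (-0.48), Ogn (-0.46) and Thbs1 (-0.32).

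Fmod was compared with the other members within the same arrays. It had the lowest difference of the members in these same data, so small p-values for its pairs partly restate that value. Its pairs also share 1 set of Fmod values and are not independent of each other. For each of the 45 pairs of members the within-array difference of their brightest probe sets was compared between the groups by an exact two-sided permutation test. Of the 9 pairs with Fmod, 8 had p under 0.05, with p from 0.00794 to 0.0794 over the 9 and sizes of 0.28 to 0.68 on the log2 scale. Dcn minus Fmod was 3.62 ± 0.22 in mutant and 2.98 ± 0.19 in control arrays (SD, n = 5 each; exact permutation p = 0.00794, the smallest that 5 against 5 allow). Fmod minus Thbs1 was -1.08 ± 0.13 and -0.40 ± 0.14 (exact permutation p = 0.00794). Thbs1 minus Thbs2 was -0.68 ± 0.08 and -0.92 ± 0.04 (exact permutation p = 0.00794). In these 3 pairs the arrays of the groups did not overlap. Shares over pairs of other genes are not given here, so the pair counts of this paragraph cannot set the members apart. Among pairs without Fmod, p was under 0.05 also for Dcn minus Aspn (0.36), Lum minus Aspn (0.18) and Aspn minus Thbs1 (-0.40), with exact permutation p = 0.0159, 0.0238 and 0.0159. Without control replicate 1 all 9 pairs with Fmod had an exact permutation p under 0.05. After adjustment over the 45 pairs none passed, the lowest value being 0.0893, or 0.0974 without control replicate 1. A pair shows unequal change only, not which gene moved.

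Several members lie beside each other in the mouse genome (gene order from RefSeq, GRCm38.p6). On chromosome 10 Dcn is followed by Lum and then Kera, the gene of the corneal SLRP keratocan, which gave 0.32, 0.14 and 0.14 on their brightest probe sets. On chromosome 13 the order is Ecm2, Aspn, Omd and Ogn, with differences of 0.06, -0.04, -0.30 and 0.16; Omd encodes osteomodulin, an SLRP of bone. On chromosome 1 Optc, Prelp and Fmod gave 0.08, 0.10 and -0.32. None of these 10 genes was called in the gene-level fit with limma (the smallest p was that of Dcn, adjusted p = 0.0651).

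The promoter windows of the members were searched for the SMAD core, CAGAC or its reverse complement GTCTG. RefSeq windows (GRCm38.p6, 250 bases before to 50 after the start site) were matched by symbol for 7 members: Bgn, Fmod, Ogn, Aspn, Prelp, Thbs2 and Thbs3. The core stood in 3 of these, Fmod with 2, Prelp with 3 and Thbs2 with 2, and 49.6% of all 32851 windows hold at least 1 and 16.2% at least 2. The palindrome GTCTAGAC, which joins both strands of the element, was in none of the 7 and in 0.213% of all windows. The 3 windows that hold the core are shown 5′ to 3′ on the strand of the gene, with the core in capitals. The windows lie at chr1:134037004-134037303 (plus strand) for Fmod, chr1:133921352-133921651 (minus strand) for Prelp and chr17:14694213-14694512 (minus strand) for Thbs2. A match is only a description of the letters.
Fmod: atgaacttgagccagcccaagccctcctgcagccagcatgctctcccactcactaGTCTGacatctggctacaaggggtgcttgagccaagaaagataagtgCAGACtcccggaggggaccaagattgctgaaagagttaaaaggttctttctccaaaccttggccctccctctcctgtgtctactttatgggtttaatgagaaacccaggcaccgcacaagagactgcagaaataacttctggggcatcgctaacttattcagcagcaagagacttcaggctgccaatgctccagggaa
Prelp: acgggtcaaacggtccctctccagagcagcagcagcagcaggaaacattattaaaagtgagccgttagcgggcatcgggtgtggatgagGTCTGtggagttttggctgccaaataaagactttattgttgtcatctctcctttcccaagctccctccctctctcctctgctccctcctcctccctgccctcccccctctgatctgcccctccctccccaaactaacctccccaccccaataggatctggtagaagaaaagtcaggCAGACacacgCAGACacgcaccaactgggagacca
Thbs2: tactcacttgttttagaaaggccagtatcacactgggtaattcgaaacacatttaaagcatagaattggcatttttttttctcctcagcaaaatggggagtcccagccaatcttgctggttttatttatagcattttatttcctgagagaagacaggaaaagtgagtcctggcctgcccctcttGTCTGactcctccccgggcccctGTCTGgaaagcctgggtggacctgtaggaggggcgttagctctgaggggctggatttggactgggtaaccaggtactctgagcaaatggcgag

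Called changes were found among other genes of the family and its partners, in lists written with earlier results of these data known. Of 92 genes in 8 lists, 87 were measured, and 8 were higher and 3 lower in the gene-level fit, each gene by its brightest probe set. That is 12.6% called, against 8.26% of all 18193 genes, with 2.90% of all genes higher and 5.36% lower. Because of how the lists were chosen, these shares cannot show that the lists changed more than other genes. In the same fit 0 of the 10 members were called (limma), and 3 had an unadjusted p under 0.05, against 25.2% of all genes. Without control replicate 1, 10 list genes were higher and 6 lower. The share over all genes in that fit is not given here, while over all probe sets the called share rose from 3.26% to 4.46%.

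Thbs4, a thrombospondin of tendon and muscle attachments, fell 2.20-fold. Mutant replicates 1 to 5 read 5.8, 5.9, 5.7, 6.3 and 6.3, and control replicates 1 to 5 read 7.0, 6.7, 7.3, 6.9 and 7.8, with no overlap. The log2 difference was -1.14 (SE 0.19, limma adjusted p = 0.00681), or -1.18 without control replicate 1, and the call held in all 12 alternatives run for it. For every list gene these 12 were a block for the replicate number, quantile normalization again and each array left out in turn. The Eif2s3y covariate and array weights were not run for the list genes. Tendon markers fell beside it, 3 of 3 (Scx -0.64, Tnmd -1.36, Mkx -0.44; limma adjusted p = 0.0278, 0.0122 and 0.0118), with a list mean of 6.13 to 6.83 in mutants and 6.77 to 7.43 in controls. Skeletal muscle markers fell as well, 4 of 5 (Myod1, Actn2, Myh3 and Ttn; Des was -0.46, limma adjusted p = 0.116), with a list mean of 5.94 to 8.22 and 8.16 to 9.32. Without control replicate 1, 3 of 3 and 3 of 5 were called, Myod1 being lost (limma adjusted p = 0.0663). Their part in the Thbs4 result was not tested. Comp, the pentameric cartilage thrombospondin also made by tendon, was 0.32 (SE 0.10, limma adjusted p = 0.0686) and was not called.

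Among 9 other SLRPs measured, Chad, which encodes the cartilage protein chondroadherin, was 0.34 higher (SE 0.08, limma adjusted p = 0.0280) and 8 were not called. In the test of all probe sets, which the member probe sets went through, Chad was not called (limma adjusted p = 0.0517). Mutant Chad values were 6.0 to 6.2 and controls 5.6 to 6.0. The call was lost in 7 of 12 alternatives: with the replicate block, without mutant replicates 1, 3, 4 and 5 and without control replicates 3 and 4 (limma adjusted p up to 0.0718).

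Of 10 thrombospondin receptors and partners only Cd36, the receptor of thrombospondins 1 and 2 on endothelium and adipocytes, was called. It read 5.6, 4.9, 5.2, 6.0 and 5.4 in mutants and 6.7, 6.3, 5.9, 5.8 and 6.7 in controls, where mutant replicate 4 overlapped the lower controls. It fell 1.82-fold in the gene-level fit (log2 -0.86, SE 0.22, limma adjusted p = 0.0370). In the test of all probe sets the same probe set was not called (limma adjusted p = 0.0654), while the other two gave -0.82 (limma adjusted p = 0.0338) and -0.16 (limma adjusted p = 0.449). The call was lost in 8 of 12 alternatives, among them without control replicate 1 (-0.75, limma adjusted p = 0.0630), without control replicates 2 and 5, without mutant replicates 1, 2, 3 and 5 and with the replicate block. Endothelial markers averaged 7.82 to 8.07 in mutants and 7.50 to 8.08 in controls with 0 of 4 called (limma; 0 at an unadjusted p under 0.05). The lowest of these was control replicate 1, the other controls being at least 7.98, and without it Kdr, an endothelial receptor of VEGF, was called lower (-0.22, limma adjusted p = 0.0276). Skeletal muscle markers fell in the same arrays, 4 of 5 being called lower, as given with Thbs4 above. The part of either cell type in the Cd36 values was not tested. Cd47, the other main thrombospondin 1 receptor, was 0.18 (limma adjusted p = 0.299). Of 6 SLRP receptors 0 were called by limma and 2 had an unadjusted p under 0.05; Met, a receptor that decorin binds, had the smallest p (-0.32, SE 0.12, limma adjusted p = 0.111).

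Of 10 proteases that cleave SLRPs or thrombospondins, 2 were higher. Adamts5, an aggrecanase that also cleaves other matrix proteoglycans, read 8.4, 8.1, 8.5, 8.4 and 8.3 in mutants and 7.6, 7.5, 7.6, 7.4 and 7.6 in controls. The groups did not overlap, and it rose 1.74-fold (log2 0.80, SE 0.08, limma adjusted p = 0.000806), or 0.81 without control replicate 1. Of its 4 probe sets, 2 were called in the test of all probe sets, and the other two gave 0.36 and 0.16. Adamts1, a related protease that can cleave thrombospondins, read 9.8 to 10 in mutants and 8.7 to 9.5 in controls, without overlap. It rose 1.56-fold (log2 0.64, SE 0.13, limma adjusted p = 0.0161), or 0.50 without control replicate 1, its lowest array. Both calls held in all 12 alternatives run for them.

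Of 25 genes for glycosaminoglycan linker and chain synthesis, 2 were higher and 23 not called. Csgalnact1, which starts chondroitin sulfate chains, read 8.4 to 8.6 in mutants and 7.8 to 8.2 in controls and rose 1.41-fold (log2 0.50, SE 0.08, limma adjusted p = 0.00423). B4galt7, an enzyme of the linker between chain and core protein, rose by 0.36 (SE 0.09, limma adjusted p = 0.0280), and this call was lost without mutant replicates 1, 2 and 5 and control replicates 2 and 3 (limma adjusted p up to 0.0656). The Csgalnact1 call held in all 12 alternatives, but its other probe set gave 0.24 and was not called (limma adjusted p = 0.242). For B4galt7 the same probe set was not called in the test of all probe sets (limma adjusted p = 0.0517), where its other probe set was (0.74, limma adjusted p = 0.0470).

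Of 18 collagen fibril and matrix partners, Col5a3, a minor chain of the fibril collagen V, was the only one called. It read 6.7 to 6.9 in mutants and 5.9 to 6.3 in controls and rose 1.54-fold (log2 0.62, SE 0.08, limma adjusted p = 0.00191), although its other probe set gave 0.00. The list averaged 11.32 to 11.47 in mutants, 10.68 in control replicate 1 and at least 11.27 in the other controls, and its median difference went from 0.19 to 0.06 without that array. Of 7 TGF-beta ligands and latent complex genes, Tgfb2 (0.94), the ligand TGF-beta 2, and Ltbp4 (0.30), a latent TGF-beta binding protein, were higher and Nrros (-0.40), which binds latent TGF-beta 1, was lower (limma adjusted p = 0.00322, 0.0169 and 0.0255). The Ltbp4 call was lost with the replicate block (limma adjusted p = 0.0593). The Nrros call was lost in 7 of the 12 alternatives: with the replicate block, without mutant replicates 1, 2, 3 and 5 and without control replicates 3 and 5 (limma adjusted p up to 0.0722).

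**Figure D4:**
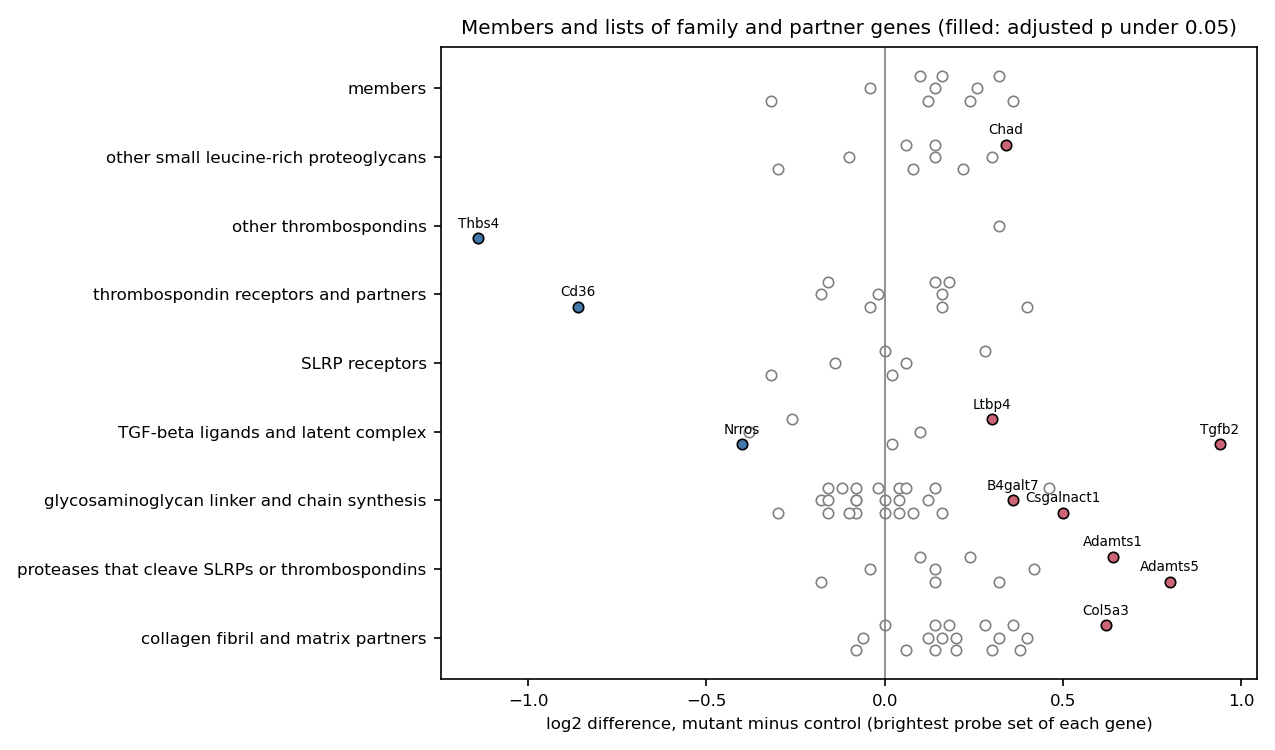
Log2 difference, mutant minus control (horizontal axis), of the 10 members and of the genes in 8 lists (vertical axis), each gene by its brightest probe set; filled points passed an adjusted p under 0.05 (limma), open points did not. All 10 members are open, and the filled points farthest from 0 are Thbs4 (-1.14), Tgfb2 (0.94), Cd36 (-0.86) and Adamts5 (0.80).

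The genes whose array profile came closest to a member were ranked by the root mean square difference of centred log2 values over the 10 arrays. For Dcn, the member with the smallest p on its brightest probe set, these were Mgp, Asphd1 and Nudt12, at 0.0831, 0.0872 and 0.0900, against a spread of 0.218 of Dcn itself. Mgp encodes matrix Gla protein, an inhibitor of mineral deposition, and was 0.34 higher in mutants (limma adjusted p = 0.0346). The ranking includes the difference between the groups, so a gene close to Dcn tends to differ in the same direction. For Thbs1, the member with the largest difference among the brightest probe sets (0.36), they were Slc41a2, Dync2h1 and Cx3cr1, at 0.0900, 0.104 and 0.104 against 0.264 for Thbs1, and none of these was called (limma adjusted p = 0.221, 0.0803 and 0.0527).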

How the data were processed

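The deposited table holds log2 values that the authors made with RMA, per the submitters' processing notes; no source used here gives its software or filters. They are rounded to 1 decimal, and differences near 0.1 are thus coarse. The number of arrays limits the precision. Every column belonged to a sample.

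The 64 AFFX control probe sets were left out. Of 45101 probe sets, 34958 had 1 gene symbol and 932 several; symbols were updated through the Entrez ID in RefSeq (34754 matched). The fit was limma 3.58.1 in R 4.3.3 (lmFit, eBayes), giving mutant minus control without filter or covariate (two-sided), and Benjamini-Hochberg adjustment over 45037 probe sets, or over 18193 genes by their brightest probe set for the lists. A call is an adjusted p under 0.05. Pairs were tested by exact permutation over arrays in Python 3.11.15.

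The members and lists were chosen with earlier results of these data known. Named genes are all member probe sets, up to 3 called genes per list with the smallest p (else the 1 with the smallest p), family neighbours, and the 3 profiles nearest to Dcn and to Thbs1; Comp, Cd47 and the markers named singly were chosen after their values were seen. On simulated arrays of 45037 probe sets for this comparison the fit found 2 of the 50 simulated 1.2-fold changes and 29 of 50 at 1.5-fold. It found 45 of 50 at 2-fold and 49 of 50 at 3-fold, with 6 false calls. The simulation changed far fewer probe sets than were called in the data, which makes the adjustment stricter. It had independent noise and no outlying array, so its rates may not carry over to these arrays. Alternatives were the brighter 60% of probe sets, 1 probe set or the mean of all per gene, trend with robust fitting, quantile normalization again, median centring, array weights, Eif2s3y as a covariate, a replicate block, and each array left out in turn. List genes were run only with quantile normalization again, the replicate block and each array left out.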

Additional observations from a re-analysis of the deposited data

Results flagged for a closer look

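In 9 of the 48 groups of 5 member values 1 array lay far from the rest (gap over range above 0.71). Chance flags about 1 in 20 groups where values are unrounded and groups are independent. These values are rounded, and the groups share arrays and genes, so that rate gives no measure of an excess here. In 5 of the 9 flagged groups the array was control replicate 1. It read 11.3, 10.9 and 10.9 on the Bgn probe sets 1416405_at, 1437889_x_at and 1448323_a_at, where the other controls read 11.9 to 12.1, 11.5 to 11.6 and 11.6 to 11.7. It read 9.1 on the Thbs2 probe set 1422571_at, against 9.9 to 10.2, and 8.4 on Thbs3, against 9.2 to 9.3. Mutant replicate 5 was high on the Dcn probe set 1441506_at (6.7, against 6.3 to 6.4) and the Fmod probe set 1456084_x_at (8.6, against 8.2 to 8.3). Mutant replicate 2 was low on Lum (12.7, against 12.8 in the other mutants, a single step of the deposited values) and on the Thbs2 probe set 1450663_at (9.8, against 10.1 to 10.2).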

How the results depend on the processing

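Member calls appeared in 4 settings: 2 probe sets, both of Dcn, with array weights (2.51% of all probe sets called higher), 3 with Eif2s3y as a covariate, 1 without control replicate 2 (1.03%) and 1 gene, Dcn, with the mean of its probe sets; all were higher in mutants, and the others gave 0, so that with each array left out in turn the count was 0 to 1. Signs turned for Aspn 1416652_at (0.01), Fmod 1415939_at (0.05) and Fmod 1437324_x_at (0.01) with Eif2s3y, for Prelp 1416321_s_at without control replicate 1 (-0.01, the low end of -0.01 to 0.19 with each array left out) and for Aspn by the mean of its probe sets (0.09); none of these was called on either side. The cause was not tested. Over all probe sets, 1467 were called (484 higher, 983 lower). Array weights gave 2899 (1131 and 1768) and Eif2s3y 915 (319 and 596). With each array left out in turn the count was 464 to 2010 (125 to 769 higher, 339 to 1241 lower). The numbers in the titles did not pair the arrays (same-number correlations -0.064 to 0.076); with the replicate block 98 probe sets were called (34 and 64), 0 of them members, and 7 list genes (6 higher, 1 lower). The smallest p that permuting within 5 pairs allows is 0.0625. The 11 list genes called (8 higher, 3 lower) were 7 to 16 with each array left out (6 to 10 higher, 1 to 6 lower). The counts of pairs past the threshold were 0 in every setting run; the smallest p of the exact test (0.00794 with 10 arrays) is so large that a few pairs alone cannot pass the adjustment, and with the block none can, so this says nothing about stability. At 5 arrays a group, simulated 1.2-fold changes were recovered in 2 of 50 cases under the settings of that simulation. Small differences may go uncalled here, at a rate that the simulation does not give.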
